A study of Bos taurus with 18 samples.

Results

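Syndecans, glypicans and perlecan are the main proteins that carry heparan sulfate, a long sulfated sugar chain, at the cell surface and in the matrix around cells. Syndecans span the membrane, glypicans are held to it by a lipid anchor, and perlecan is secreted into basement membranes and into the matrix around chondrocytes. Their chains bind growth factors such as fibroblast growth factors, and the core proteins also link the matrix to the cytoskeleton. Here 9 of these genes were followed by their symbols: SDC1, SDC2, SDC3 and SDC4 (syndecans), GPC1, GPC3, GPC4 and GPC6 (glypicans) and HSPG2 (perlecan). All 9 are among the 16989 gene symbols that were counted, and 7 of them had enough reads to be measured.

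The cells were mesenchymal stem cells (MSCs) from the bone marrow of juvenile cattle, kept at passage 1 on culture plastic in DMEM with serum and without chondrogenic induction. Poly-adenylated RNA came from 17 clones, each grown out of a single cell of the same donor, and from 1 heterogeneous population of that donor, the mixed cells of many founders. Each culture was sequenced once, so the spread between clones holds clone differences and technical error together, and 1 donor limits what these clones stand for. The study asked whether RNA levels before differentiation mark the clones that later deposit matrix.

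Libraries held 11484812 to 18458157 reads on genes in the clones and 16092501 in the heterogeneous population. A count of 0 allows up to 3 reads, or 0.1625 to 0.2612 CPM (counts scaled to a common library size), counting error only. Levels below are CPM scaled by the trimmed mean of M-values (TMM), and log2 levels carry a pseudocount of 0.25 CPM. Transcript lengths were not used, so CPM values are compared between libraries for the same gene. Examples from gene lists were picked by mean CPM, which favours long transcripts and gives no order of transcript number. In bulk RNA, fewer cells that express a gene and less RNA per cell cannot be told apart. All 6 MSC markers were found in every library, among them NT5E (at least 233 CPM), THY1 (at least 212 CPM) and ENG (at least 137 CPM). The 10 macrophage markers summed to 2.06 to 7.36 CPM of total reads in the clones. Clones C and O were the most alike pair, with a chi-square of 4.90 per gene between their reads, against 22.3 to 355 for all other pairs, where 1 is pure counting noise. They differ by more than counting noise, which does not show that they grew from different cells. They were kept as 2 clones, as labelled, and the permutation tests below take them as independent. Whether they are was not tested.

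SDC1, the syndecan best known from epithelia and plasma cells, was counted at 4590 to 21908 reads in the clones. Its level ran from 300.5 CPM in clone N through a median of 654 CPM to 1320.5 CPM in clone M (mean 733 ± 320.1, SD, n = 17). Clone L (320.3 CPM) lay next to the bottom and clone A (1283 CPM) next to the top, so neither end rested on a single clone. The heterogeneous population had 635 CPM, below 10 of the clones and above 7. Of the plasma cell markers besides SDC1, IRF4 had 0 reads, and XBP1, MZB1 and TNFRSF17 had at most 1, 2 and 4 in any clone. Of the 5 epithelial markers, KRT8 had 0 reads and EPCAM, KRT18 and KRT19 at most 1, 1 and 2 in any clone. The fifth, the epithelial cadherin CDH1, went the other way, with up to 96 reads (5.69 CPM) in clone H and 143 reads (9.38 CPM) in the heterogeneous population, above every clone (log2 fold change 2.64, standard error 0.94, edgeR adjusted p = 0.42). Its part in the SDC1 level was not tested. Such zeros say little by themselves, because PGK1, a glycolysis gene that every cell uses, also had 0 reads in all 18 libraries.

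SDC4, a syndecan of focal adhesions that activates protein kinase C alpha, had the opposite order of clones. It ran from 34.5 CPM in clone M through a median of 83.5 CPM to 185 CPM in clone N (mean 88.2 ± 40.7, SD, n = 17), with the heterogeneous population at 95.9 CPM. The lowest clone for SDC4 was thus the highest for SDC1, and the highest for SDC4 was the lowest for SDC1. Clones F (42.2 CPM) and Q (149 CPM) were the neighbours of these ends.

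SDC2, the syndecan typical of mesenchymal cells, varied less than SDC1 and SDC4. It ran from 307 CPM in clone G through a median of 432 CPM to 755 CPM in clone A (mean 504 ± 164, SD, n = 17), and the heterogeneous population had 418 CPM. Clones A, F, B, K, E and M lay between 620.2 and 755 CPM, and all others had at most 545 CPM. SDC3, known mainly from neural and muscle tissue, ran from 49.2 CPM in clone L through a median of 94.97 CPM to 171 CPM in clone A (mean 97.2 ± 35.6, SD, n = 17), and the heterogeneous population had 108 CPM.

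GPC4, a glypican that modulates growth factor signalling, had the widest range of the measured members. It ran from 69.9 CPM in clone N through a median of 346 CPM to 771 CPM in clone E (mean 361 ± 188, SD, n = 17), an 11.03-fold range, and the heterogeneous population had 539 CPM. Clone N stood below all others, since the next lowest clone, L, had 152 CPM. GPC6, a glypican of growth plate and mesenchyme, was counted at 63 to 255 reads, from 3.797 CPM in clone M through a median of 11.5 CPM to 16.7 CPM in clone K (mean 10.9 ± 4.16, SD, n = 17), and the heterogeneous population had 13.98 CPM. Clones M, P (4.25 CPM) and E (4.96 CPM) were its 3 lowest.

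GPC3 and GPC1 could not be measured. GPC3, which restrains hedgehog signalling and growth, had 0 to 2 reads per clone, 14 in all over the clones, and 2 in the heterogeneous population. In the RefSeq gene table of the ARS-UCD2.0 assembly it is the next coding gene after GPC4, so neighbouring glypican genes differed in whether they were detected. GPC1 had 0 reads in all 18 libraries. Genes in general use were also listed at 0 (PGK1, and CASK, a cytoplasmic syndecan partner), so these counts do not show that GPC1 or GPC3 is absent from the cells. The other glypicans, GPC2 and GPC5, had 2 to 32 and 0 to 1 reads per library.

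HSPG2 was the steadiest member. It ran from 1719 CPM in clone M through a median of 2674 CPM to 3218 CPM in clone P (mean 2604 ± 465, SD, n = 17), a 1.87-fold range, and the heterogeneous population had 2568 CPM. On the log2 scale its SD between clones was 0.28, below the median of 0.31 over the 10699 genes with a mean of at least 1 CPM, and 42.1% of those genes had a smaller SD.

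**Figure D1:**
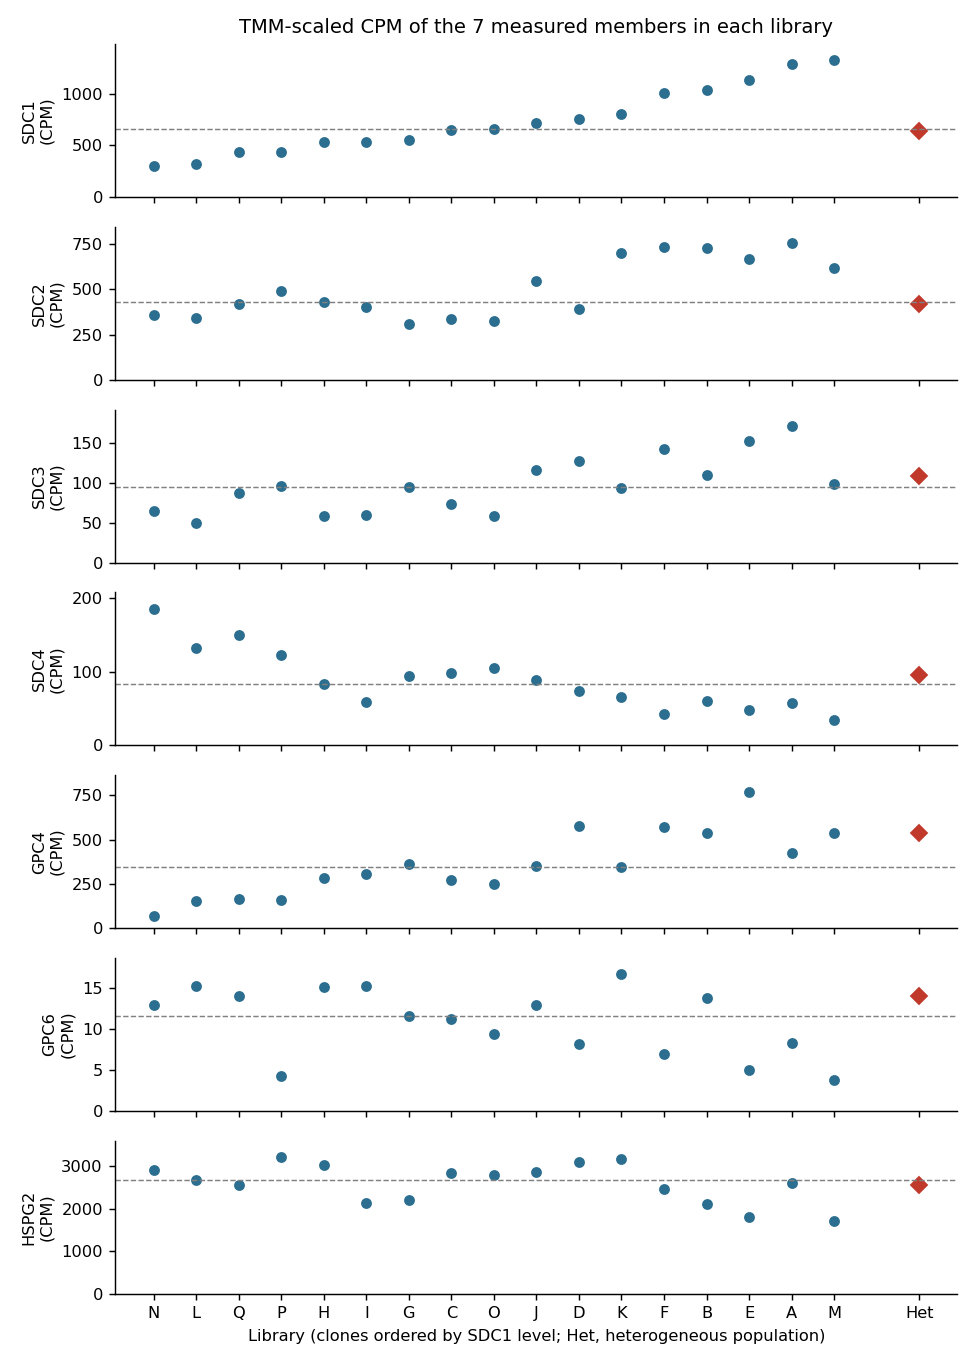
TMM-scaled CPM (linear axes from 0) of the 7 measured members in each clone (circles, ordered by SDC1) and in the heterogeneous population (diamond), with the median of the clones dashed. SDC4 falls from 185 CPM in clone N to 34.5 CPM in clone M as SDC1 goes from 300.5 to 1320.5 CPM, while HSPG2 stays between 1719 and 3218 CPM.

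The other 6 measured members all had a log2 SD above the median gene: 0.47 for SDC2, 0.53 for SDC3, 0.65 for SDC1, 0.66 for SDC4, 0.66 for GPC6 and 0.88 for GPC4. For GPC4, 91.5% of genes had a smaller SD, and for SDC2 73.4% did. The median over the 7 members was 0.65. Counting error was small beside this spread, with a variance of reads 24.4 (GPC6) to 2101 (SDC1) times that of Poisson counting. How much of the remainder is technical was not tested, since no clone was sequenced again.

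**Figure D2:**
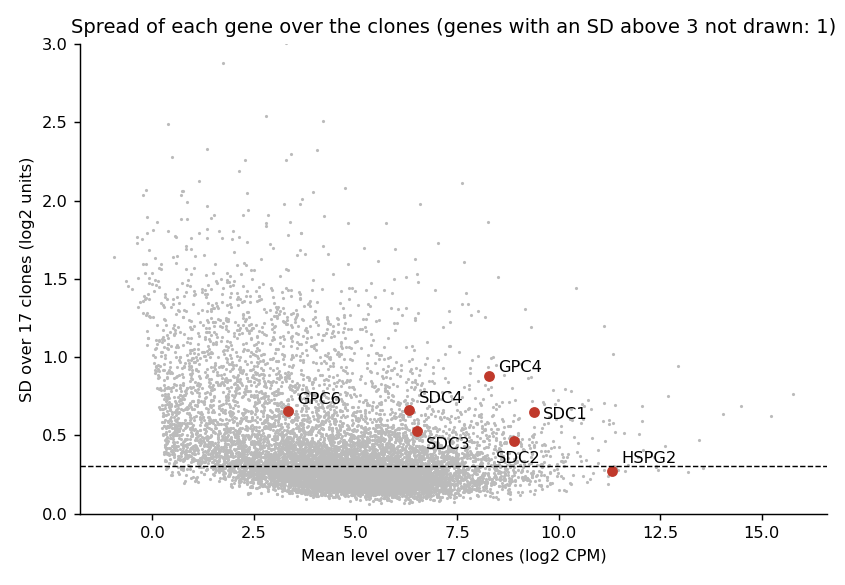
SD of the log2 level over the 17 clones against its mean for each of 10699 genes (grey), with the 7 measured members in red and the median SD of 0.31 dashed (1 gene with an SD above 3 is not drawn). GPC4 is the highest of the members at 0.88 and HSPG2 the lowest at 0.28.

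The make-up of the syndecan reads differed between clones in a way that no scaling of libraries can change. Of all reads on the 4 syndecans, SDC4 took 1.66% in clone M (95% Wilson interval 1.53% to 1.80%) and 20.4% in clone N (19.7% to 21.1%), with a median of 6.03% over the clones. SDC1 took 63.7% in clone M (63.2% to 64.2%) and 33.0% in clone N (32.2% to 33.8%). The ratio of SDC1 to SDC4 reads was 38.3 in clone M and 1.62 in clone N. The intervals cover counting error in these libraries only. In percentage points SDC2 and SDC3 kept narrower shares, 28.5% to 42.8% and 4.72% to 9.42%. As a fold range, the share of SDC3 was not narrower than that of SDC1.

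**Figure D3:**
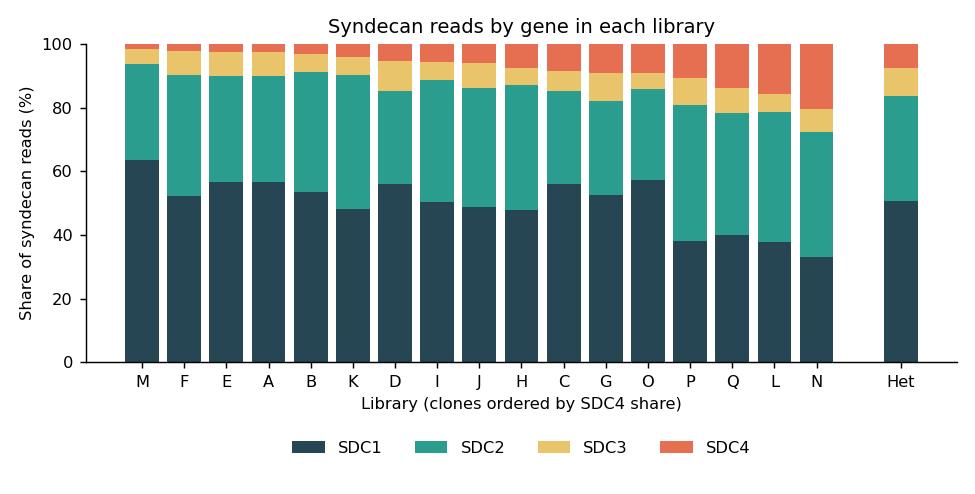
Share of all reads on the 4 syndecan genes taken by each, in percent, for the 17 clones ordered by SDC4 share and for the heterogeneous population (Het). SDC4 widens from 1.66% in clone M to 20.4% in clone N, and SDC1 is 33.0% in clone N.

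Levels of several members moved together or in opposite directions over the 17 clones. Pearson r was computed for all 21 pairs of the 7 members, with two-sided permutation tests and Benjamini-Hochberg (BH) adjustment over the 21. After adjustment 11 pairs passed 0.05. Correlation is common among clones of these data: 17.8% of all pairs of 10699 genes had an absolute r as large as the weakest of the 11 (0.557). As large a value as in the 3 strongest pairs (at least 0.886) was found in 0.331% of gene pairs.

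Those 3 strongest pairs join SDC1, GPC4 and SDC4. SDC1 and GPC4 rose together (r = 0.888, permutation p = 1e-05, the smallest that the resamples can give, adjusted p = 0.000105; Spearman rho = 0.853, p = 7e-05). SDC1 was high where SDC4 was low (r = -0.888, permutation p = 2e-05, adjusted p = 0.00014; rho = -0.865, p = 2e-05). GPC4 was likewise high where SDC4 was low (r = -0.886, permutation p = 1e-05, adjusted p = 0.000105; rho = -0.848, p = 6e-05). Without the 2 clones farthest from the median of SDC1, L and N, r was 0.834 for SDC1 with GPC4 and -0.840 for SDC1 with SDC4. Without clones M and N, the farthest for SDC4, r was -0.877 for SDC4 with GPC4. With each clone left out in turn, the 3 values stayed between 0.868 and 0.911, -0.930 and -0.857, and -0.906 and -0.859.

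SDC2 and SDC3 moved with SDC1. The r of SDC1 was 0.750 with SDC2 (permutation p = 0.00065, adjusted p = 0.00302; rho = 0.659, p = 0.00502) and 0.741 with SDC3 (permutation p = 0.00072, adjusted p = 0.00302; rho = 0.748, p = 0.00078), and 0.724 and 0.654 without clones L and N. SDC2 and SDC3 had r = 0.719 (permutation p = 0.00168, adjusted p = 0.00588; rho = 0.674, p = 0.00384), and 0.611 without clones A and F. SDC2 was lower where SDC4 was higher (r = -0.697, permutation p = 0.0022, adjusted p = 0.0066; rho = -0.681, p = 0.00332), with r = -0.635 without A and F. SDC3 rose with GPC4 (r = 0.670, permutation p = 0.00298, adjusted p = 0.00782; rho = 0.789, p = 0.00031), with r = 0.650 without A and L. SDC4 was therefore the 1 syndecan with a negative r to each of the other 3, although that with SDC3 (r = -0.557) depended on single clones.

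The remaining 3 pairs that passed depended on single clones, on the scaling or on the measure, and SDC2 with GPC4 and SDC4 with HSPG2 did not pass by Spearman rho. SDC2 with GPC4 had r = 0.579 (permutation p = 0.0138, adjusted p = 0.0289; rho = 0.537, p = 0.0279, adjusted p = 0.0532; r = 0.529 without A and F) and an adjusted p of 0.103 with library totals in place of TMM, and of 0.0617, 0.0596 and 0.0557 without clone E, F or L. SDC3 with SDC4 had r = -0.557 (permutation p = 0.0207, adjusted p = 0.0395; rho = -0.613, p = 0.0102, adjusted p = 0.0214; r = -0.485 without A and L), and its adjusted p was above 0.05 without clone A, C, E, F, L, N or O. SDC4 with HSPG2 had r = 0.600 (permutation p = 0.0114, adjusted p = 0.0267; rho = 0.522, p = 0.0346, adjusted p = 0.0606), but r = 0.449 without clones M and N (permutation p = 0.0931), and without clone M or clone E alone the adjusted p was 0.113 and 0.0617. By Pearson r with TMM, GPC6 passed with no other member (r from -0.507 with SDC3 to 0.443 with SDC4, smallest adjusted p = 0.0636). It did pass with SDC3 by Spearman rho (-0.627, adjusted p = 0.0197) and without clone B or M (0.04996 and 0.0451), and with SDC1 without clone B (0.04996). With library totals it passed with SDC1 (adjusted p = 0.0392), SDC3 (0.037), SDC4 (0.0342) and HSPG2 (0.037). Without clone P, which is low in GPC6, 5 of its pairs passed: r was -0.68 with SDC1 (adjusted p = 0.00966), -0.55 with SDC3 (0.0341), 0.64 with SDC4 (0.0154), -0.58 with GPC4 (0.0294) and 0.59 with HSPG2 (0.0278). HSPG2 with SDC1 and with GPC4 did not pass by Pearson r with TMM over all clones (adjusted p = 0.072 and 0.0636). With library totals both passed (r = -0.69, adjusted p = 0.00991, and r = -0.64, adjusted p = 0.0201). Both also passed without clone K (0.0485 for each), and HSPG2 with GPC4 without clone D (0.023).

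**Figure D4:**
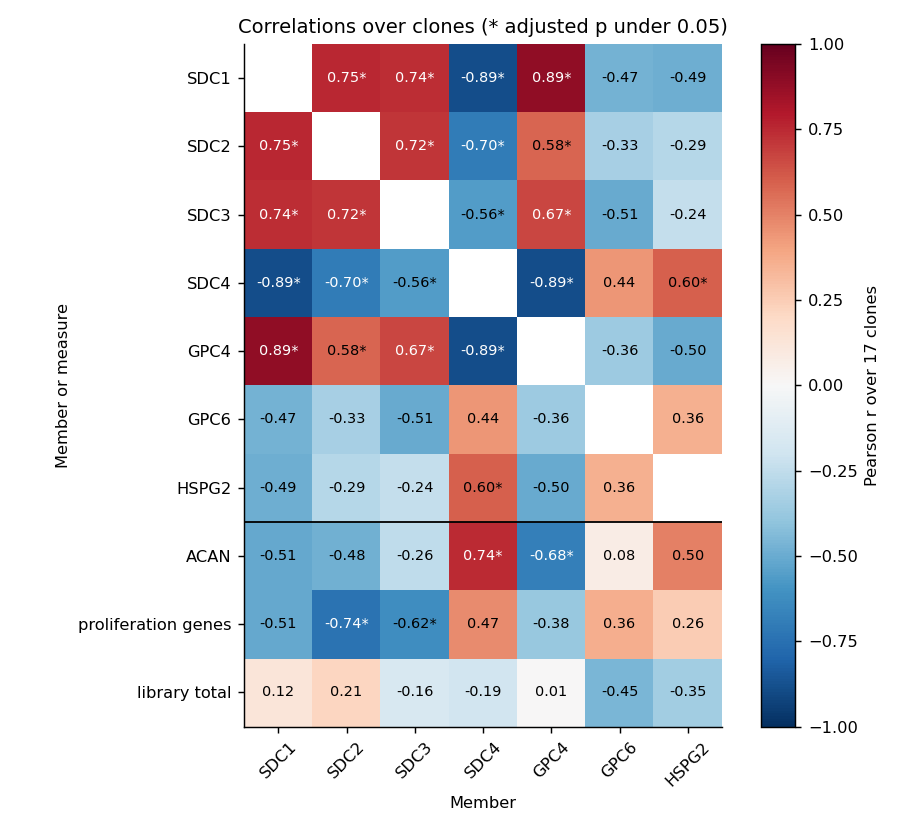
Pearson r over the 17 clones for each pair of measured members (above the line) and of each member with ACAN, the proliferation genes and the library total (below it), where an asterisk marks an adjusted p under 0.05. SDC1, SDC2, SDC3 and GPC4 form a block of positive values, and SDC4 is negative with each of them, from -0.56 with SDC3 to -0.89 with SDC1.

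Each member was then set against aggrecan (ACAN), the main cartilage proteoglycan, against the mean log2 level of 10 proliferation genes (MKI67, TOP2A and others) and against the library total, 21 relations in all. After BH adjustment 4 passed 0.05. SDC4 rose with ACAN (r = 0.744, permutation p = 0.00072, adjusted p = 0.00903; rho = 0.760, p = 0.0007, adjusted p = 0.0147) and GPC4 fell with it (r = -0.682, permutation p = 0.00227, adjusted p = 0.0159; rho = -0.615, p = 0.0099, adjusted p = 0.052). An absolute r of at least 0.682 with ACAN was found in 4.22% of genes. ACAN itself ran from 18.4 CPM in clone H to 2734 CPM in clone N, and clones C, N, O, P and Q, at 748 CPM or more, lay above all others, which had at most 302 CPM. Without N and O, the clones farthest from its median, r was 0.660 for SDC4 and -0.555 for GPC4. Without M and N, r was 0.659 for SDC4 (adjusted p = 0.056) and -0.54 for GPC4 (adjusted p = 0.194), so neither passed. Among the 12 clones below 748 CPM, r was 0.38 for SDC4 (adjusted p = 0.474) and -0.15 for GPC4 (adjusted p = 0.711). Without clone N alone, GPC4 had r = -0.57 (adjusted p = 0.0799). Leaving out these 5 clones, which were picked after their values were seen, also shortens the range of ACAN, so the lower r does not show whether the relation differs among the other clones.

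SDC2 and SDC3 were lower where the proliferation genes were higher. For SDC2 r was -0.741 (permutation p = 0.00086, adjusted p = 0.00903; rho = -0.645, p = 0.00618, adjusted p = 0.052) and for SDC3 -0.624 (permutation p = 0.00807, adjusted p = 0.0424; rho = -0.627, p = 0.00831, adjusted p = 0.052). Without clones C and O, the farthest from the median, r was -0.667 and -0.561. An absolute r of 0.624 or more with the proliferation genes was found in 30.4% of all genes. Values of this size are thus common and not particular to SDC2 and SDC3. Clones C, G, L and O stood apart in these genes, which summed to 1444 CPM or more in each of them and to at most 637 CPM in the others. Without those 4 clones r was -0.43 for SDC2 and -0.50 for SDC3 (adjusted p = 0.273 for each). These 4 clones too were picked after their values were seen, and the range of the proliferation genes is shorter without them. For SDC3 the adjusted p was also above 0.05 (0.0508 to 0.12) without clone B, C, D, E, F, I, J, K, L, O or P alone. The 4 clones had 307 to 344 CPM of SDC2, and the other 13 had 359 to 755 CPM. The gap was narrow, with clone L at 344 CPM and clone N at 359 CPM. The share of all genes that separate these 4 clones from the others was not counted. No member followed the library total (r from -0.455 for GPC6 to 0.211 for SDC2, smallest permutation p = 0.0679).

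**Figure D5:**
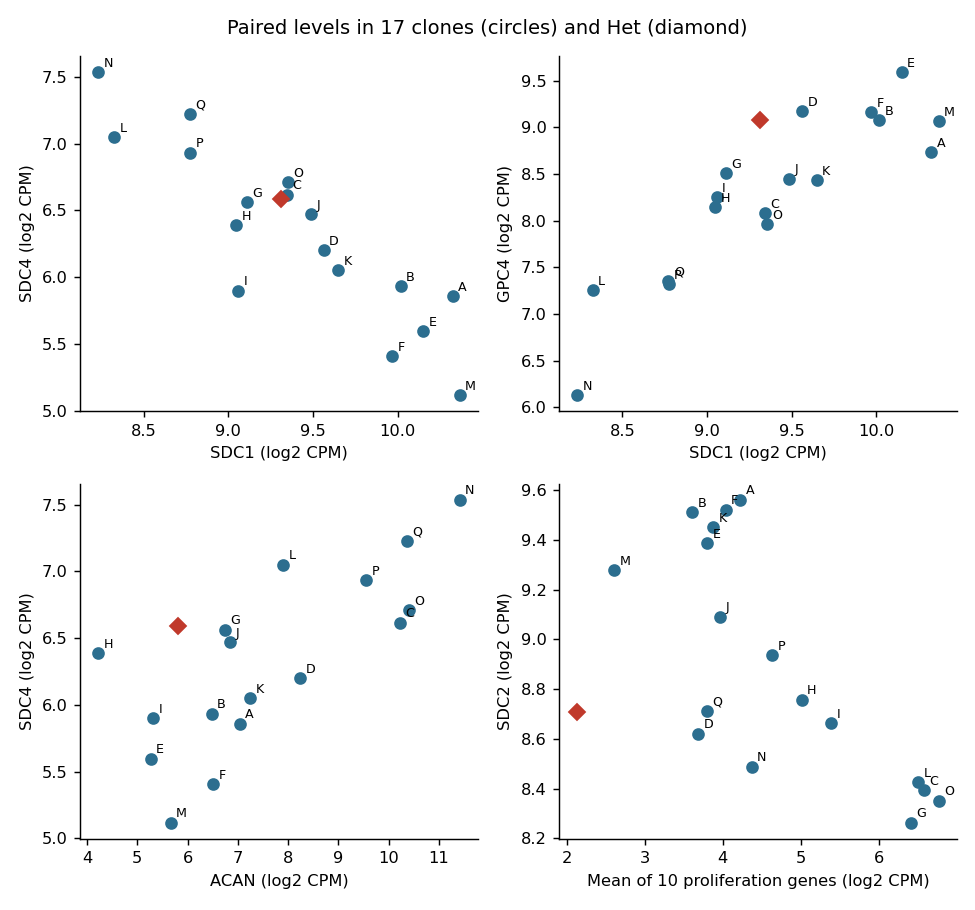
Log2 levels of SDC4 and GPC4 against SDC1, of SDC4 against ACAN and of SDC2 against the mean of 10 proliferation genes, 1 circle per clone with its letter and a diamond for the heterogeneous population. SDC1 with SDC4 (r = -0.888) and with GPC4 (r = 0.888) run across all clones, whereas clones C, G, L and O make up the low end of SDC2.

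Genes whose levels were most like those of each member were named by their Pearson r over the 17 clones, as a description chosen for likeness and therefore without a test. These values share the libraries and their scaling. For SDC1 they were LOXL2, a lysyl oxidase-like enzyme that cross-links collagen (r = 0.930), ARTN, a ligand of the GDNF family (0.927), and LRPAP1, a chaperone of LDL receptor proteins (0.923). For GPC4 they were COL1A1, the alpha 1 chain of type I collagen (0.960), the adhesion molecule IGSF9 (0.952) and again LOXL2 (0.946). LOXL2 ran from 303 to 2103 CPM. COL1A1 alone took 1.52% to 9.27% of the reads on genes, enough to move every other CPM value scaled by library totals. For SDC4 they were PDGFRA, a platelet-derived growth factor receptor of stromal cells (0.939, 95.5 to 780 CPM), the transcription factor ZFHX3 (0.934) and PSD3 (0.923). The strongest negative value of any member was that of SDC4 with the secreted semaphorin SEMA3D (-0.963), and ZFHX3 had -0.933 with GPC4, both named after their values were seen.

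For SDC2 the closest genes were SIAE, a sialic acid esterase (0.900), C13H20orf194 (0.893) and SCCPDH (0.893). For SDC3 they were POMGNT1, an enzyme of O-mannose glycans (0.902), B3GAT3, which adds the glucuronic acid of the linker that joins glycosaminoglycan chains to core proteins (0.885), and CBS (0.878). GPC6 had MTSS1 (0.857), ZNF704 (0.825) and EEPD1 (0.797). HSPG2 had CTDSP1 (0.835), KAT8 (0.807) and DAG1, which encodes dystroglycan, a receptor of perlecan and laminins (0.803, 212 to 332 CPM).

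Each clone was compared with the other 16 by edgeR's quasi-likelihood test, in which the single clone is assumed to vary as the others do. In simulated data with 1 clone against 16, edgeR found 9% of planted changes of 1 log2 unit and 72.5% of those of 2. A gene that is not called can therefore still differ between clones. Whether the 9% and 72.5% hold for genes that spread as widely between clones as most of the members was not tested. Of the 119 fits of the 7 measured members, 0 passed an adjusted p of 0.05, against 0.045% of all gene fits (0.731% in clone N, 0.034% in clone M and 0 in the other clones). At an unadjusted p under 0.05 there were 6 of 119 (5.04%), against 4.4% of all gene fits. These were SDC4, GPC6 and HSPG2 lower in clone M (log2 fold changes -1.41, -1.57 and -0.63), SDC4 higher and GPC4 lower in clone N (1.17 and -2.44) and GPC6 lower in clone P (-1.41). The smallest adjusted p was 0.167, for GPC4 in clone N (standard error 0.84). DESeq2 called 1, GPC4 in clone N (log2 fold change -2.46, adjusted p = 0.014 by its Wald test), in a clone where it called 3.26% of all genes and over fits of all clones where it called 0.232%.

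The heterogeneous population lay inside the range of the clones for all 7 measured members, while 17.5% of 10699 genes lay outside it (8.08% above and 9.42% below). By edgeR 0 of 7 members differed from the 17 clones, at an adjusted p of 0.05 or at an unadjusted 0.05, and DESeq2 called 0, against 0.749% of all genes. Of all genes tested, 1.22% were called (1.21% higher and 0.00842% lower), and 7.68% had an unadjusted p under 0.05. The largest difference was in GPC4 (log2 fold change 0.58, standard error 0.74, edgeR adjusted p = 0.856), and that of SDC1 was -0.21 (standard error 0.63, edgeR adjusted p = 0.947). With 1 library against 17, an approximate interval of 2 standard errors on either side still leaves room for a change of more than 1 log2 unit in every measured member except HSPG2. Macrophage markers did stand apart in this library, with 8 of 10 called higher by edgeR and a summed level of 133 CPM against 2.06 to 7.36 in the clones. CD163 had 667 reads against at most 12. Their part in the members' levels was not tested.

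Other genes of heparan sulfate biology were followed as lists, here and in the next paragraph. At the low shares of all genes called in the comparisons above, lists of this size would hold few calls or none. Counts of called genes therefore do not set these lists apart from other genes. Of 10 other core proteins 9 were in the files and 6 were tested, with 0 called in the heterogeneous population and 0 in any clone. Its examples by mean CPM were NRP1, a co-receptor of semaphorins and VEGF (48.4 to 340 CPM), TGFBR3 or betaglycan (15.003 to 48.3 CPM) and AGRN or agrin (1.37 to 17.6 CPM). Of 25 enzymes that build, sulfate or cut the chains, 19 were tested, and 1 was higher and 0 were lower in the heterogeneous population. That enzyme was HPSE, heparanase, which cleaves heparan sulfate, with 73 reads against 0 to 4 in the clones (log2 fold change 6.12, standard error 0.77, edgeR adjusted p = 5.24e-05, a value that depends on the prior count at such low reads). It moved in the same library as the macrophage markers above, and their part in it was not tested. SULF2 and SULF1, which remove sulfate from the chains outside the cell, had 118 to 499 and 81.4 to 377 CPM in the clones, and EXT2, of the enzyme pair that extends the chain, had 196 to 315 CPM. No enzyme was called in any clone.

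Of 18 ligands that bind heparan sulfate and their receptors, 16 were tested and 0 were called in the heterogeneous population or in a clone. Examples by mean CPM were PTN or pleiotrophin (188 to 1269 CPM), FGFR1 (205 to 501 CPM) and FGF7 (40.9 to 242 CPM). Of 15 cytoplasmic partners, convertases and sheddases 14 were tested, and 1 was higher and 0 lower in the heterogeneous population. This was MMP9, a gelatinase also made by macrophages and osteoclasts (10509 reads against at most 229, log2 fold change 7.30, standard error 0.86, edgeR adjusted p = 2.69e-05). Examples by mean CPM were MMP2 (1349 to 3442 CPM), MMP14 (591 to 1406 CPM) and SYNPO, and SYNPO, an actin-associated partner of syndecan signalling, ran from 111 to 367 CPM. Of 14 basement membrane partners of perlecan 13 were tested and 0 were called. Examples by mean CPM were FBLN2 or fibulin-2 (207 to 8550 CPM), LAMB1 (550 to 1346 CPM) and LAMC1 (419 to 858 CPM). Beside the log2 SD of 0.28 of HSPG2, the 13 measured partners had a median log2 SD of 0.74, from 0.20 for DAG1 to 2.54 for COL4A2.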

How the data were processed

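The authors aligned single-end reads to bosTau7 with STAR (2.3.0e in the processing notes) and counted them per RefSeq gene with HTSeq. The deposited values are raw counts, whole reads per gene, 1 file per library. The library kit does not mark strand, so reads of overlapping or antisense genes cannot be told apart. A series table holds the same values (0 of 305802 cells differ). The 5 tally lines that name no gene were left out, 18.78% to 26.81% of reads outside genes and up to 0.192% ambiguous. Groups came from the clonality label. The authors' FPKM and pellet assays were not used here.

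Levels were TMM CPM. Tests were edgeR 4.0.16 (TMM, filterByExpr, glmQLFit, glmQLFTest) with BH adjustment over all genes, DESeq2 1.42.0 as alternative, in R 4.3.3. Permutation tests had 100000 resamples (Python 3.11.15, numpy 2.4.6, scipy 1.17.1). All were tested on simulated data, where DESeq2 made a larger share of false calls than edgeR in fits of a single library. P-values measure the spread between these cultures, each sequenced once. Lists name genes called in a comparison, or the 3 with the highest mean CPM. The 3 genes most like a member needed a mean CPM of at least 1. Members and lists were chosen with earlier results of these data known. Gene neighbours came from the RefSeq ARS-UCD2.0 table, where 15471 symbols and all 9 members matched, and no sequence or coordinate is printed.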

Additional observations from a re-analysis of the deposited data

How the results depend on the processing

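No paired analysis was possible because the groups compared hold 17 clones and 1 library and share no replicate numbers in the labels. Of 21 pairs of members, 11 passed, and 8 to 16 did so with each clone left out in turn, 10 by Spearman rho (SDC2 with GPC4 and SDC4 with HSPG2 lost, SDC3 with GPC6 gained), 16 with library totals and 8 without clones M and N. Of the 21 relations with ACAN, proliferation genes and library total, 4 passed. By Spearman rho 1 did (SDC4 with ACAN), and 3 to 6 did with each clone left out. Without clones M and N 2 passed, and SDC4 and GPC4 with ACAN were lost. Other sets were chosen after seeing the data. Without the 4 clones highest in proliferation genes 2 passed, and without the 5 clones highest in ACAN 4 did. Among those 12 clones the proliferation genes had r = -0.85 with SDC1 (adjusted p = 0.00483), -0.74 with GPC4 and 0.75 with SDC4 (0.0289 each). The median SD of the members was 0.55 to 0.67 log2 over the alternatives. DESeq2 called 1 member in a clone against 0 by edgeR. Over all genes DESeq2 called 383 in clone N against 86, 8 in clone M against 4, 464 in all clones against 90, and 89 in the heterogeneous population against 145, and adjustment over all 17 fits left 10. The causes were not tested. Library totals moved the median gene to -0.21 log2 in clone M, 0.12 in clone N and -0.12 in the heterogeneous population, from -0.04, -0.03 and -0.04.

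Signs turned in the following values, none of which passed a test. The SDC4 difference of the heterogeneous population was -0.0031 with library totals, and that of HSPG2 ran from -0.0503 to 0.0122 with each clone left out. The r of library total with GPC4 was -0.0270 by Spearman rho, -0.0175 with library totals, -0.268 without M and N and -0.0014 without the 4 proliferating clones. Without M and N, r was -0.181 for library total with SDC1, 0.147 with SDC4 and -0.138 for ACAN with GPC6, and without the 5 ACAN-high clones it was 0.203 for ACAN with SDC3. With each clone left out, r with library total ran from -0.139 to 0.177 for GPC4, -0.109 to 0.30 for SDC1, -0.226 to 0.0045 for SDC3 and -0.318 to 0.0717 for SDC4, and that of ACAN with GPC6 from -0.0593 to 0.215.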

Other observations

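In the heterogeneous population 9 of the 10 proliferation genes were below every clone, where 9.42% of all genes were, and CDK1 was the exception. MKI67, a marker of cycling cells, had 18.6 CPM against 21.6 to 590 CPM in the clones, although 0 of the 10 passed an adjusted p of 0.05 by edgeR (2 had an unadjusted p under 0.05). Among perlecan's partners, NID1, which links laminin to type IV collagen, was at 1334 CPM in that library against 48.2 to 1043 CPM in the clones (edgeR adjusted p = 0.656). The type IV collagen genes COL4A1 and COL4A2 spread most of that list, from 1.14 CPM in clone Q to 386 CPM in clone P for COL4A1 and from 0.13 to 172 CPM in the same clones for COL4A2. The 0.13 CPM lies below the 0.1625 to 0.2612 CPM that a count of 0 allows. The low end of COL4A2 is therefore not a measured level, and its log2 SD of 2.54 depends in part on the pseudocount.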
